A study of Mus musculus with 30 samples.

Results

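Erythroid identity, membrane and globin genes were followed in mice that model therapy-related myeloid neoplasms, from stem and progenitor cells taken before disease to bone marrow with myelodysplastic syndrome (MDS) or acute myeloid leukaemia (AML). The 36 gene symbols were listed by name, and every row of the expression tables with one of these symbols was taken. Ca1 and Car1 are 1 gene, which leaves 35 genes. Of these, 31 were found among the 12941 genes of the bone marrow and LSK tables, 26 among 11275 genes in bone marrow and 26 among 11740 genes in LSK cells, with 21 in both. Epb4.2, Hbb-b1, Hbb-b2 and Ahsp were not analysed here under those symbols. Under the listed symbols, Car2 and the globin genes Hba-a1, Hba-a2, Hbb-bt and Hbb-bs were found in the LSK table alone, and Erfe, Slc4a1, Ank1, Sptb and Trim10 in the bone marrow table alone. Marrow rows under other symbols of Car2 and of a beta globin are given apart from the 26.

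All mice were C57BL/6. AML bone marrow (6 mice) had developed from marrow haploinsufficient for Egr1 and Apc and transduced with a Trp53 shRNA. Of these mice, AML 1, AML 4 and AML 5 came from donors and recipients treated with ENU, a mutagen that alkylates DNA, AML 6 from a treated recipient and an untreated donor, and AML 2 and AML 3 had no ENU. MDS bone marrow (6 mice) had developed from the same haploinsufficient marrow carrying a luciferase shRNA as control, with ENU to donor and recipient in every mouse. Recipients were wild type and both groups carried the Egr1 and Apc changes, so disease, Trp53 knockdown and exposure differed together, and no healthy marrow was sequenced beside them. LSK cells (Lin-, Sca1+, Kit+), the fraction that holds blood stem cells and multipotent progenitors, were sorted from 4 groups of 3 before disease. These were EAP with ENU (Egr1 and Apc haploinsufficiency, Trp53 shRNA, ENU to donor and recipient), EAP (the same without ENU), transplanted WT (wild type marrow with the luciferase shRNA) and WT (not transplanted, no shRNA). 1 library labelled EAP, EAP 1, carries a transplant label for wild type marrow that goes against its other labels. Ages and sexes were not given in the sources used here.

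Red cells arise from multipotent progenitors under a small set of nuclear proteins, among them GATA1, its cofactor FOG1 (gene Zfpm1), TAL1, LMO2 and KLF1, which act at GATA and CACCC motifs in the DNA of erythroid genes. Erythropoietin, bound by its receptor, keeps committed precursors alive. The maturing erythroblast then builds a spectrin and ankyrin skeleton under its membrane, inserts the anion exchanger and the Rh and Kell proteins, and fills with haemoglobin. Anaemia and faulty red cell production are hallmarks of myelodysplastic syndrome.

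Promoters of 23 of the 31 genes were found in the RefSeq table of the GRCm38.p6 build (250 bases before to 50 bases after each start), as 28 promoters. Those of Lmo2, Nfe2, Slc4a1, Ank1, Car1, Car2, Xpo7 and Cldn13 were not matched. A GATA motif, AGATAA on either strand, was present in promoters of 8 of the 23 genes (Tal1, Epor, Rhd, Icam4, Kel, Sphk1, Trim10 and Hbb-bs), against 11.2% of all 32851 promoters in the table. A CACCC motif, CCACCC on either strand, was present for 15 genes, against 31.5% of all promoters. This string is narrower than CACCC itself. The Hbb-bs window holds CACCC within CCACACCC and has no match. The NF-E2 type motif TGAGTCA was present for 4 genes (Kel, Sphk1, Trim10 and Hbb-bs), against 5.20% of all promoters. Some genes, Sphk1 above all, have several promoters in the table, so counts by gene and by promoter are not the same measure. Across the 28 member promoters, 9, 18 and 5 held the 3 motifs in the same order. The promoters of Epor, Kel and Trim10 are shown as those of a hormone receptor, a blood group enzyme and a gene of late erythroblasts. Their windows each hold both a GATA and a CACCC match, and their differences between AML and MDS marrow follow. They lie at chr9:21963527-21963826 (minus strand), chr6:41704276-41704575 (minus strand) and chr17:36869324-36869623 (plus strand), are written 5′ to 3′ on the gene's strand, and have motif matches in capitals.
Epor: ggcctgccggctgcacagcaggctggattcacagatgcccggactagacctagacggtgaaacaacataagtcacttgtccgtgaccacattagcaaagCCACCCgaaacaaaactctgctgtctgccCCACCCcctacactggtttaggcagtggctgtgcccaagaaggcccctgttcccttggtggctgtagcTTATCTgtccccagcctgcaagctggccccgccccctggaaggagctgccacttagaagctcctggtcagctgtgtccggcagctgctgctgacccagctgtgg
Kel: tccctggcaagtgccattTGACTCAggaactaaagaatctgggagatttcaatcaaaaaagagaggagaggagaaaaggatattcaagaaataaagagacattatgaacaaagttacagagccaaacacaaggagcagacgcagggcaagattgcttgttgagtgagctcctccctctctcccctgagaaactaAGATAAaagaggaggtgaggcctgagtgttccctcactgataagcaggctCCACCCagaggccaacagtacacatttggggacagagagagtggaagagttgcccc
Trim10: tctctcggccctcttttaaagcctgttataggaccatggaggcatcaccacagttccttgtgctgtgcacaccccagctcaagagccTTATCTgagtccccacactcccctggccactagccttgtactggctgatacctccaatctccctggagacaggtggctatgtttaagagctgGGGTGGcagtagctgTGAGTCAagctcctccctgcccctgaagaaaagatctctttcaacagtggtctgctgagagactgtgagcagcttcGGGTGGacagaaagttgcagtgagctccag
In Epor the capitals are 2 CACCC matches and 1 GATA match on the other strand. In Kel they are 1 match of each motif, and in Trim10 they are 1 GATA match, 2 CACCC matches and 1 NF-E2 type match. A match describes the letters only.

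Values are the deposited normalised values per gene, which are not divided by gene length. Marrow libraries held 17341986 to 21698808 reads over the genes in the table, recovered from the step between values. Value sums ran from 803746 to 1118648 in marrow and from 808377 to 1437201 in LSK cells, whose depth is unknown. Trp53, the target of the shRNA, had 23.0 to 58.0 in AML marrow, against 43.2 to 97.9 in MDS marrow. In LSK cells it had 70.6 to 173 with EAP and ENU and 65.5 to 132 with EAP, against 247 to 370 in transplanted WT and 213 to 349 in WT. By principal components of all genes, AML 3 lay farthest from the other marrow libraries, and WT 2, transplanted WT 3 and EAP 1 lay apart from the other LSK libraries. Differences below are on the log2(value + 1) scale, tested with limma across all genes with Benjamini-Hochberg adjustment and a threshold of 0.05.

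In bone marrow, all 26 erythroid genes were measured lower in AML than in MDS, as were 47.3% of all genes. The erythroid genes summed to 527 to 6890 in AML libraries, 0.0606% to 0.774% of the library, against 8750 to 28420 in MDS libraries, 0.822% to 2.71% of the library. The groups did not overlap in this sum. Slc4a1 alone made up 0.353% to 1.17% of the MDS libraries and 0.000705% to 0.276% of the AML libraries, so this 1 gene weighs heavily in it. The median log2 difference of the 26 genes was -3.12, beside 0.04 over all 11273 genes tested. Of the 26, 9 passed the threshold, all lower in AML, where 3.20% of all genes passed in either direction and 2.21% passed as lower. These were Erfe, Icam4, Slc38a5, Bpgm, Rhag, Cldn13, Epor, Tspan33 and Tal1, with adjusted p between 0.037 and 0.0499. The other 17 had adjusted p of 0.05 or more, 13 of them below 0.08. For 13 of the 26 genes every AML library lay below every MDS library, a pattern found for 2.13% of all genes. The genes were chosen with earlier results of these data known, so these counts are no independent evidence. In whole marrow, fewer erythroid cells and less of a transcript in each cell cannot be told apart.

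Which genes passed depended on single libraries, whereas all 26 were lower in AML in every fit tried. Leaving out any 1 MDS library, AML 5 or AML 6 left 0 of the 26 genes past the threshold. The share of all genes past it in those fits is not given here, so the lost calls cannot be read as particular to erythroid genes. Without AML 1, 24 of the 26 passed, all lower, with Zfpm1 and Ca1 the exceptions, where 10.6% of all genes passed as lower. The edgeR quasi-likelihood test on the recovered reads called 1 of the 26, Erfe, and 3.97% of all genes. At an unadjusted p under 0.05, 25 of the 26 genes differed in the limma fit, where 13.9% of all genes did so as lower.

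**Figure D1:**
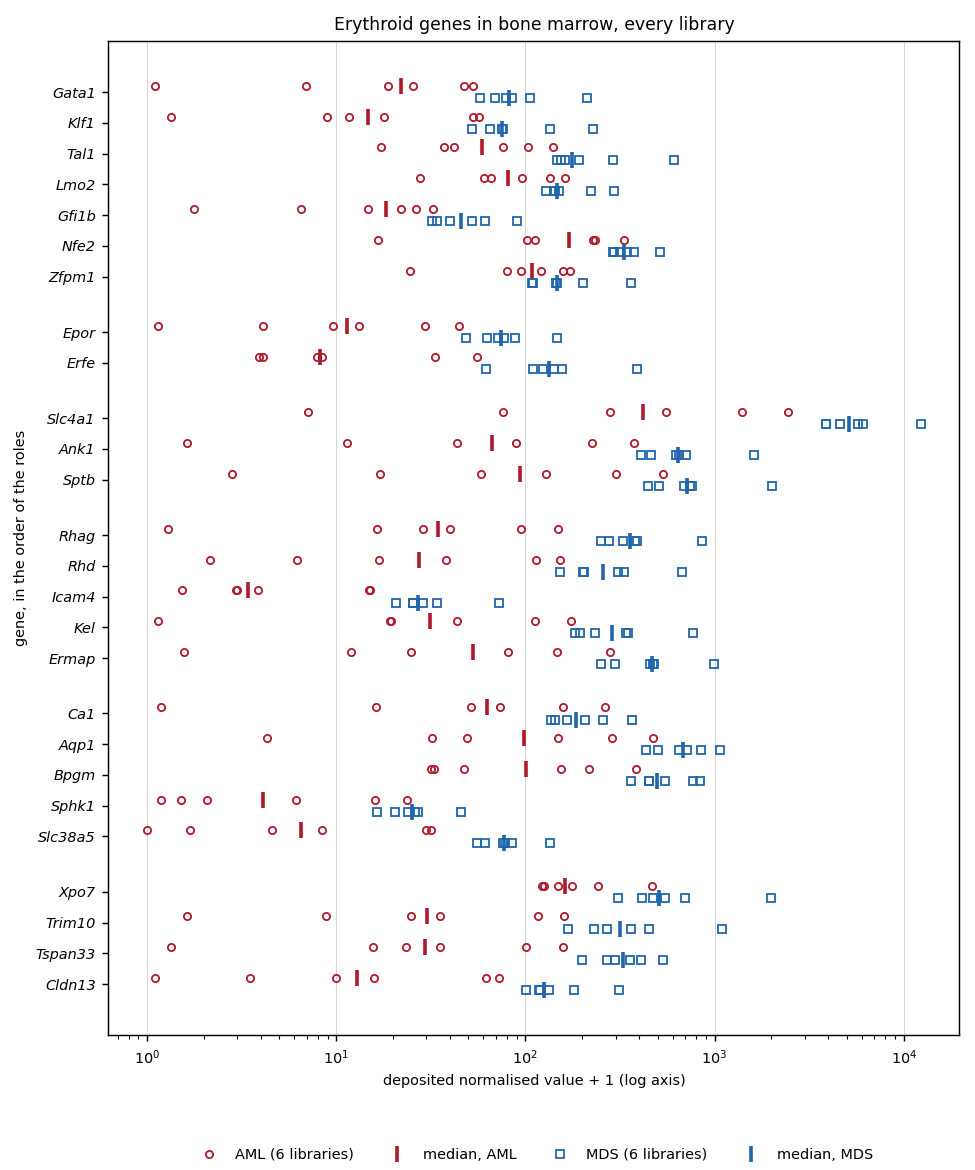
Deposited normalised value plus 1 (log axis) of the 26 erythroid genes in each AML library (red circles) and each MDS library (blue squares), with the group medians as bars. The AML median lies to the left for every gene, as with 415 in AML and 5170 in MDS for Slc4a1, and the groups do not overlap for 13 genes.

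Among the 7 transcription factors, Tal1 passed the threshold. Tal1, a basic helix-loop-helix protein at the base of blood and red cell formation (chromosome 4, 115056426 to 115071755 in mm10), had a lowest value of 16.3, a median of 58.1 and a highest of 139 in AML, against 147, 176 and 606 in MDS. The groups did not overlap, and its log2 difference was -2.01 ± 0.50 (SE, n = 6 each, limma adjusted p = 0.0499). Klf1, the erythroid Krüppel-like factor, had 0.335, 13.8 and 56.0 in AML, against 51.3, 74.4 and 225 in MDS. AML 1 and AML 4 reached the low end of the MDS range for Klf1, and its difference of -2.71 ± 0.79 did not pass (limma adjusted p = 0.067). Gata1, the X-linked regulator of red cell and platelet precursors, had 0.0957, 21.1 and 51.7 in AML, against 56.2, 80.7 and 211 in MDS. No AML library reached the lowest MDS value of Gata1, and its difference of -2.67 ± 0.81 did not pass (limma adjusted p = 0.074).

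The other 4 factors had smaller differences, though that of Gfi1b was close to that of Tal1. Gfi1b, a zinc finger repressor, had a log2 difference of -1.99, Nfe2, the subunit of NF-E2 found in red cell and platelet precursors, -1.51, Lmo2, the adaptor between TAL1 and GATA1, -1.13, and Zfpm1, the GATA1 cofactor, -0.82. None of these 4 passed (limma adjusted p = 0.079, 0.12, 0.095 and 0.23 in the same order). The AML median was 74.1% of the MDS median for Zfpm1, 54.7% for Lmo2 and 51.1% for Nfe2. Over the 7 factors the median log2 difference was -1.99, the least among the roles.

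Both genes around erythropoietin signalling passed. Epor, the erythropoietin receptor (chromosome 9, 21958897 to 21963506), had a lowest value of 0.143, a median of 10.4 and a highest of 43.5 in AML, against 47.4, 73.4 and 146 in MDS, without overlap. Its log2 difference was -3.02 ± 0.74 (limma adjusted p = 0.048). Erfe encodes erythroferrone, the hormone by which erythroblasts lower hepcidin in the liver and so release iron. Erfe (chromosome 1, 91366430 to 91374217) had 2.92, 7.19 and 54.6 in AML, against 61.1, 132 and 390 in MDS. Its groups did not overlap, its AML median was 5.45% of the MDS median, the lowest share among the 26 genes, and its difference of -3.63 ± 0.67 had the smallest adjusted p of the 26 (limma adjusted p = 0.037). In the annotation, 357 bases of Erfe exons lie opposite exons of Ilkap, and use of strand in counting was not given in the sources used here.

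Among genes of the membrane skeleton and its anchor, Slc4a1 and Ank1 had the 2 largest differences of the 26 genes. Slc4a1, the anion exchanger and the main membrane protein of red cells (chromosome 11, 102348824 to 102366203), had 6.12, 415 and 2457 in AML, against 3867, 5170 and 12306 in MDS. The groups did not overlap and the log2 difference was -4.43 ± 1.15 (limma adjusted p = 0.054). Ank1, erythroid ankyrin, which ties the exchanger to spectrin, had 0.622, 65.5 and 372 in AML, against 410, 638 and 1624 in MDS, again without overlap (-3.97 ± 1.09, limma adjusted p = 0.0599). Sptb, the beta spectrin of red cells, had 1.82, 92.2 and 535 in AML, against 446, 715 and 2021 in MDS. AML 4 alone lay within the MDS range for Sptb, and its difference was -3.59 ± 1.06 (limma adjusted p = 0.069). None of these 3 genes passed. A row named Epb42, by RefSeq the current symbol of Epb4.2 and so outside the listed names, had 0.335, 30.3 and 183 in AML, against 142, 212 and 856 in MDS (-3.49 ± 1.00, limma adjusted p = 0.066). It encodes a transglutaminase-like membrane protein that binds the exchanger and ankyrin.

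Of the 5 blood group and Rh complex genes, Rhag and Icam4 passed. Rhag, the Rh-associated glycoprotein that carries ammonia or carbon dioxide and is needed for the Rh complex, had 0.287, 33.5 and 147 in AML, against 249, 354 and 857 in MDS, without overlap (-3.83 ± 0.92, limma adjusted p = 0.047). Icam4, an adhesion protein that carries the Landsteiner-Wiener blood group in humans, had 0.526, 2.42 and 14.1 in AML, against 19.8, 26.2 and 71.7 in MDS, without overlap (-2.73 ± 0.56, limma adjusted p = 0.042). All 1110 bases of Icam4 exons lie opposite an annotated antisense gene, Gm47079, from which its reads could not be told apart if counting ignored strand. Rhd, the Rh polypeptide, had 1.15, 26.5 and 151 in AML, against 151, 256 and 669 in MDS. AML 4, at 151.3, lay just above the lowest MDS library, at 150.7, and the difference of -3.58 ± 0.92 did not pass (limma adjusted p = 0.052). Kel, the Kell endopeptidase, and Ermap, which carries the Scianna blood group in humans, had differences of -3.50 ± 0.98 and -3.70 ± 1.03 (limma adjusted p = 0.062 and 0.061).

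Of the 5 enzymes and transporters, Slc38a5 and Bpgm passed. Slc38a5, an X-linked transporter of glutamine and other neutral amino acids, had 0, 5.50 and 30.9 in AML, against 54.4, 76.1 and 133 in MDS, without overlap (-3.63 ± 0.78, limma adjusted p = 0.042). It was the single gene of the 26 at 0 in a library, AML 3. Bpgm, the red cell enzyme that makes bisphosphoglycerate and so sets the oxygen affinity of haemoglobin, had 30.6, 99.4 and 384 in AML, against 362, 498 and 836 in MDS. AML 4 alone lay within the MDS range of Bpgm (-2.55 ± 0.59, limma adjusted p = 0.043). Sphk1, a kinase that makes sphingosine phosphate, had 0.191, 3.11 and 22.7 in AML, against 15.5, 24.0 and 44.8 in MDS, with AML 4 within the MDS range (-2.48 ± 0.70, limma adjusted p = 0.063). Aqp1, the red cell water channel, had a difference of -3.23 ± 0.92 (limma adjusted p = 0.065), and Ca1, the carbonic anhydrase of red cells, of -2.39 ± 1.05 (limma adjusted p = 0.15). Ca1 was at 264 in AML 4 and 158 in AML 1, against a median of 185 and a range of 136 to 363 in MDS. A row named Ca2, by RefSeq an older symbol of Car2 and so outside the listed names, had 63.4, 208 and 926 in AML, against 786, 1113 and 3521 in MDS (-2.47 ± 0.64, limma adjusted p = 0.054).

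Of the 4 maturation and surface genes, Cldn13 and Tspan33 passed. Cldn13, a claudin made by mouse erythroblasts, had 0.0957, 11.9 and 71.7 in AML, against 99.9, 125 and 312 in MDS, without overlap (-3.65 ± 0.89, limma adjusted p = 0.047). Tspan33, a tetraspanin needed for normal red cell formation in mice, had 0.335, 28.5 and 158 in AML, against 199, 326 and 532 in MDS, without overlap (-3.68 ± 0.91, limma adjusted p = 0.0499). Trim10, a tripartite motif protein of late erythroblasts, had 0.622, 29.3 and 159 in AML, against 167, 314 and 1099 in MDS. The groups did not overlap for Trim10 either, but its difference of -3.82 ± 0.96 did not pass (limma adjusted p = 0.052). Xpo7, a nuclear export receptor used in chromatin condensation of erythroblasts, had a smaller difference of -1.66 ± 0.44 (limma adjusted p = 0.055), with 122 to 466 in AML, against 307 to 1995 in MDS.

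**Figure D2:**
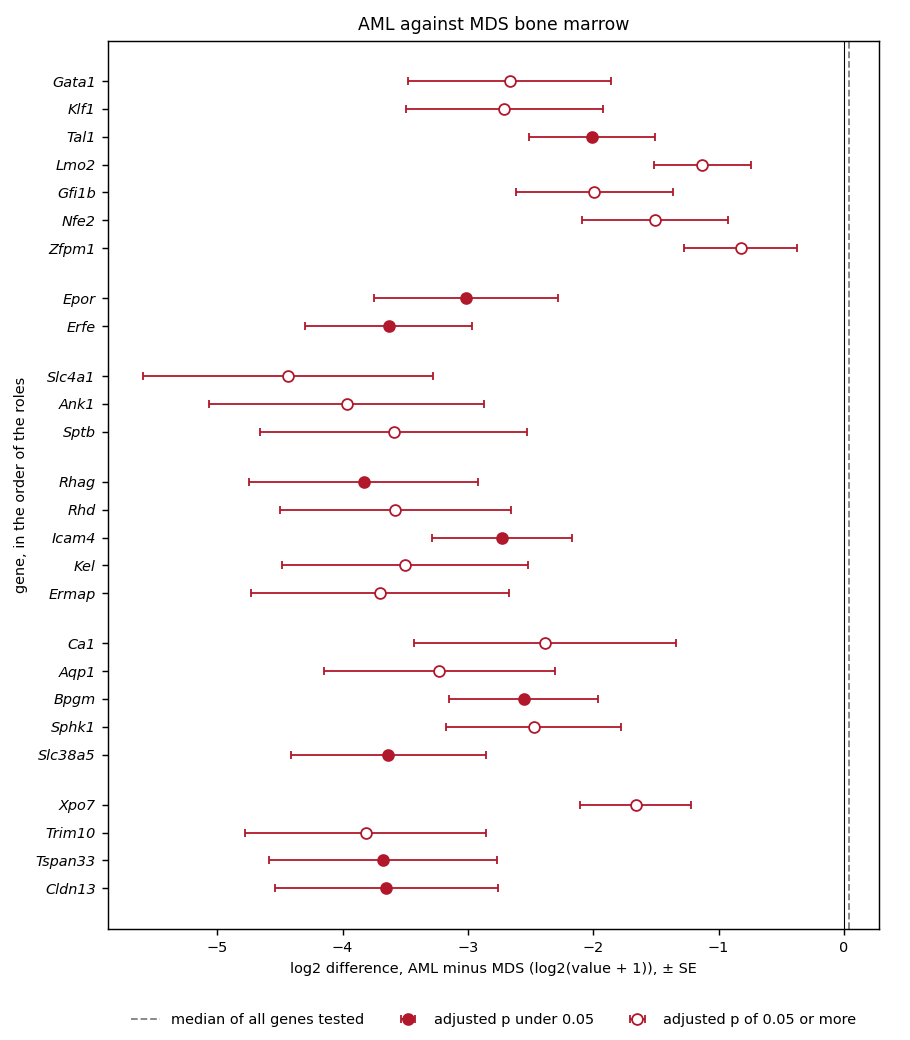
Log2 difference (AML minus MDS, on log2(value + 1)) of each erythroid gene with its standard error, grouped by role, with filled points for the 9 genes past the threshold and a dashed line at the median of all genes. All 26 points lie below 0, from -4.43 for Slc4a1 to -0.82 for Zfpm1.

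Globin rows could not be counted among the 26 in marrow. 2 rows were named Hbbt1, a RefSeq synonym of both Hbb-bs and Hbb-b1, so neither can be tied to 1 gene. The more abundant row had 15.2, 439 and 1922 in AML, against 2123, 3562 and 6759 in MDS, without overlap (-3.37 ± 0.94, limma adjusted p = 0.062). The other had 0.335, 6.19 and 23.7 in AML, against 5.41, 41.6 and 69.6 in MDS, with overlap through MDS 3 (-2.56 ± 0.79, limma adjusted p = 0.076).

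Divided by the length of the annotated exons, the MDS medians ran from 5.03 per kb for Sphk1 to 1057 per kb for Slc4a1. Aqp1 (259 per kb), Rhd (160), Rhag (151) and Ca1 (148) came next in MDS level per kb. The order of AML medians per kb began with Slc4a1 (84.9), Nfe2 (56.6), Ca1 (49.3), Aqp1 (37.2) and Lmo2 (36.9). In AML, then, the transcription factors Nfe2 and Lmo2 stood among the 5 highest erythroid genes by level per kb, and neither stood among the 5 highest in MDS.

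The AML libraries differed widely among themselves. AML 4 had the highest levels. Its median over the 26 genes was 60.5% of the MDS median, 11 genes lay within the MDS range, and 23 of the 26 were highest in AML 4 among the AML libraries. AML 1 had a median of 42.9% with 4 genes (Klf1, Lmo2, Nfe2 and Ca1) within the MDS range, and AML 5 a median of 17.5% with every gene below the MDS range. AML 2 and AML 6 had medians of 7.25% and 6.73%, each with 1 gene within the MDS range, Lmo2 in AML 2 and Zfpm1 in AML 6. AML 3 had a median of 0.352% and the lowest AML value for 22 of the 26 genes. In AML 3, Slc4a1 was at 6.12, Ank1 at 0.622 and Gata1 at 0.0957, while Zfpm1 was at 156, Xpo7 at 241 and Tal1 at 36.2.

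By role, the transcription factors had the highest median share in AML 1, AML 2, AML 3, AML 5 and AML 6, and the enzymes and transporters in AML 4. The gap was widest in AML 3 and AML 6. In AML 6 the 7 factors had a median of 42.9% of their MDS medians, beside 1.63% for the 3 membrane skeleton and exchanger genes. In that library Gfi1b was at 25.3 and Tal1 at 75.5, or 56.4% and 42.9% of the MDS median, and Gata1 was at 24.5, or 30.3%, while Klf1 was at 14.3%, Ank1 at 1.63% and Slc4a1 at 1.46%. AML 6 also had the highest Itga2b, a megakaryocyte integrin that early precursors share, at 397, against 2.20 to 62.4 in the other AML libraries and 33.3 to 58.7 in MDS. Its Kit was 375, against 41.0 to 217 in the other AML libraries and 68.8 to 82.1 in MDS. Their part in the result was not tested, and both genes were chosen after their values were seen.

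**Figure D3:**
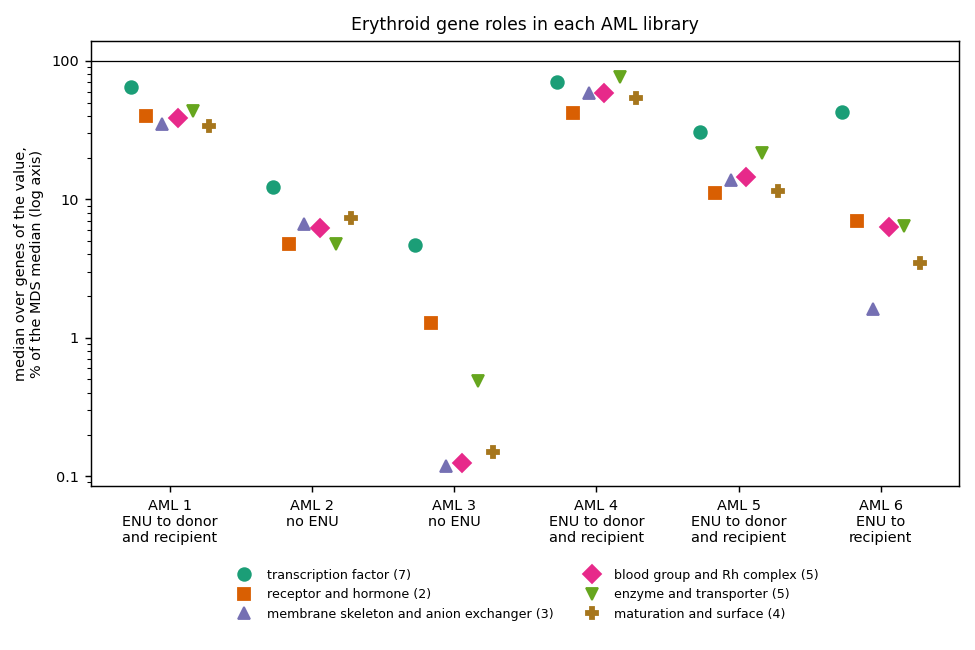
Median over the genes of each role of the value in 1 AML library as a percentage of the MDS median (log axis), with the ENU exposure of each mouse under its name. AML 1 and AML 4 lie highest, AML 3 lowest, and in AML 6 the factors (42.9%) stand far above the membrane genes (1.63%).

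Exposure differed within AML. In AML 1, AML 4 and AML 5, exposed like the MDS mice, all 26 genes were lower than in MDS with a median log2 difference of -1.51, beside 0.02 over all genes. No gene of the 26, nor any of the 11275 genes tested, passed in this fit of 3 against 6 libraries, while 24 of the 26 had an unadjusted p under 0.05 (12.8% of all genes did so as lower). The smallest unadjusted p in these libraries belonged to Slc38a5 and Rhag, with differences of -1.97 ± 0.42 and -2.19 ± 0.45 (limma adjusted p = 0.108 for both). AML 2, AML 3 and AML 6, with no ENU or ENU to the recipient alone, all lay below all 3 donor-and-recipient AML libraries for 19 of the 26 genes, a pattern held by 5.09% of all genes. For Slc4a1 these libraries had 279, 6.12 and 75.6, against 1400, 2457 and 551 in AML 1, AML 4 and AML 5. With 3 mice each and exposure not randomised between them, exposure and mouse cannot be told apart.

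Of 34 further erythroid genes, which do not include the 26, 14 passed, all lower in AML, where 2.21% of all genes passed as lower. The median log2 difference of the 34 was -2.09. Epb41, the skeletal protein that joins spectrin to actin, had a lowest value of 240, a median of 312 and a highest of 973 in AML, against 1075, 1554 and 2909 in MDS (-2.08 ± 0.37, limma adjusted p = 0.034). Bnip3l, which clears mitochondria from reticulocytes, had 97.9, 142 and 164 in AML, against 223, 304 and 417 in MDS (-1.20 ± 0.19, limma adjusted p = 0.034). The ubiquitin ligase gene Mkrn1 and the conjugating enzyme gene Ube2l6 also fell, with log2 differences of -2.03 and -2.62 (limma adjusted p = 0.038 and 0.042). None of these 4 genes had overlapping groups, a pattern found for 2.13% of all genes. They were named for the smallest p in the list, so this adds no support.

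Of 18 genes of haem synthesis and iron uptake, 9 passed, all lower in AML, beside the same 2.21% of all genes, with a median of -1.73. The pathway enzymes Alad and Urod had differences of -2.13 ± 0.37 and -1.91 ± 0.37 (limma adjusted p = 0.034 and 0.038). Slc25a37, mitoferrin, which brings iron into erythroblast mitochondria, had 130, 252 and 765 in AML, against 951, 1229 and 3647 in MDS (-2.36 ± 0.48, limma adjusted p = 0.042). Both lists were drawn up with earlier results of these data known, so their direction is no independent evidence.

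Markers of other cells also varied between libraries. Late neutrophil markers summed to 442 to 122897 in AML, against 61624 to 98908 in MDS, with 0 of 11 past the threshold, 11 of 11 lower and a median of -2.67. The AML library above the MDS range was AML 1, and the lowest was AML 3. Monocyte and macrophage markers summed to 52.9 to 4098 in AML, against 1696 to 2646 in MDS, with 12 of 13 lower and a median of -1.39. 1 of these 13 passed, Vcam1, which macrophages of erythroblastic islands carry, with 3.92, 23.9 and 37.7 in AML, against 46.9, 68.2 and 91.3 in MDS (-1.76 ± 0.43, limma adjusted p = 0.047). T cell markers summed to 86.8 to 4213 in AML, against 62.3 to 144 in MDS, with 0 of 12 past the threshold. AML 4, AML 5 and AML 6 had the high T cell sums, of 2645, 4213 and 1043. The CD3 genes were high in AML 4 and AML 5 alone. Cd3e was at 258 and 947 there and at 5.52 in AML 6, against 4.98 to 12.1 in MDS. Cd3g was at 244 and 372 there and at 4.68 in AML 6. B cell markers summed to 2684 in AML 3 and to 58.8 to 120 in the other AML libraries, against 117 to 197 in MDS.

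Megakaryocyte markers, whose precursors share GATA1, TAL1 and NFE2 with red cells, summed to 66.1 to 644 in AML, against 241 to 314 in MDS, with 0 of 12 past the threshold and a median of -0.34. Itga2b alone gave 397 of the 644, in AML 6. Basophil and mast cell markers summed to 3.68 to 268 in AML, against 86.9 to 200 in MDS. Of these, 0 of 7 passed the threshold and 7 of 7 were lower, with a median of -0.70. Prss34, the basophil protease with the smallest p in that list, had 0.0478 to 35.3 in AML, against 28.3 to 85.8 in MDS (limma adjusted p = 0.054). Stem cell markers summed to 159 to 1220 in AML, against 214 to 341 in MDS, with 0 of 9 past the threshold. The part of these cell types in the erythroid difference was not tested.

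**Figure D4:**
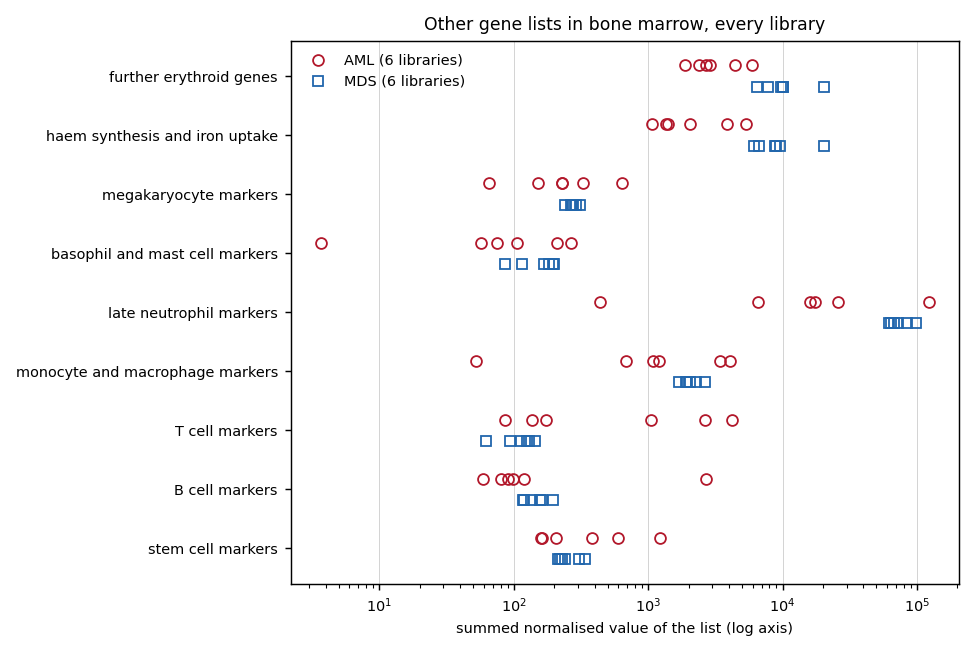
Summed normalised value (log axis) of 9 gene lists in each AML library (red circles) and each MDS library (blue squares). The further erythroid list and the haem and iron list separate the groups without overlap, while AML libraries spread on both sides of MDS for the neutrophil (442 to 122897) and megakaryocyte lists. The highest megakaryocyte sum, 644 in AML 6, holds Itga2b at 397.

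In LSK cells, before disease, no erythroid gene passed in any of 4 comparisons. Averaged over the 12 libraries and divided by exon length, Lmo2 (737 per kb), Nfe2 (292 per kb) and Car1 (107 per kb) led, followed by Hbb-bt (54.5 per kb) and Gfi1b (48.9 per kb). Rhag (1.37 per kb), Ermap and Kel (each 0.789 per kb) were among the lowest. Ly6a (the Sca1 gene) was 78.0 to 245 and Kit 65.3 to 598 over the 12 libraries. The labels do not say whether the 3 libraries of a group came from separate mice, so their spread may be technical.

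Each comparison had few calls over all genes. EAP with ENU against EAP, which asks about the mutagen, had no gene past the limma threshold (617, or 5.26%, at an unadjusted p under 0.05). EAP with ENU against transplanted WT had 2 genes (0.0171%). EAP against transplanted WT, which asks about the Egr1 and Apc haploinsufficiency and the Trp53 shRNA together, had 3 genes (0.0256%). Transplanted WT against WT, which asks about transplantation and transduction, had 3 genes (0.0256%). The 26 erythroid genes had none in each, and 3, 0, 1 and 6 at an unadjusted p under 0.05 in the same order, against 5.26%, 3.21%, 3.61% and 7.29% of all genes. Their median log2 differences were 0.43, 0.02, -0.28 and 0.48, beside 0.03, 0.01, -0.02 and 0.00 over all genes. Without WT 2, transplanted WT 3 and EAP 1, these erythroid medians were 0.49, 0.20, -0.25 and 0.22. The comparisons share groups, EAP and transplanted WT each standing on either side of the minus sign, so their opposite signs are not independent.

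Lmo2 had 1505, 1228 and 1464 in EAP with ENU, 2253, 1580 and 1388 in EAP, 1571, 1400 and 1578 in transplanted WT and 1433, 2279 and 1467 in WT. Nfe2 had 833, 628 and 744 in EAP with ENU, 1507, 689 and 809 in EAP, 852, 716 and 1119 in transplanted WT and 603, 1329 and 637 in WT. Gfi1b had 73.5, 75.5 and 78.2 in EAP with ENU, 154, 62.7 and 62.1 in EAP, 78.3, 69.2 and 123 in transplanted WT and 68.9, 171 and 58.7 in WT. For Nfe2, Gfi1b and Bpgm, the libraries EAP 1, transplanted WT 3 and WT 2 were the highest 3 of the 12, and for Tal1 EAP 1, WT 2 and transplanted WT 3 were the lowest 3. The value sums of EAP 1, transplanted WT 3 and WT 2 (1437201, 1206739 and 1130054) were also the highest 3. Their Kit values (65.3, 170 and 158 in that order) were the lowest 3, though the cells were sorted as Kit+. The part of these features in their erythroid values was not tested.

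Gata1 was the single erythroid gene called under any setting in LSK cells. It had 54.0, 54.6 and 60.3 in EAP with ENU, 56.5, 32.8 and 23.4 in EAP, 47.8, 38.8 and 59.6 in transplanted WT and 21.4, 35.3 and 16.4 in WT. Every transplanted WT library lay above every WT library, with a difference of 1.02 ± 0.35 that did not pass (limma adjusted p = 0.55). Without the 3 libraries that stand apart, transplanted WT exceeded WT by 1.16 ± 0.20 (limma adjusted p = 0.027), and with a term for those libraries by 1.02 ± 0.18 (limma adjusted p = 0.026). In those fits of transplanted WT against WT 490 and 275 genes passed, against 3 in the fit of all 12 libraries. Klf1 had 25.3, 28.4 and 41.7 in EAP with ENU, 42.3, 13.1 and 11.8 in EAP, 18.9, 19.0 and 58.7 in transplanted WT and 15.8, 20.5 and 13.3 in WT, with the library that stands apart highest in each of the 3 groups that have one.

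Epor had 14.0, 12.7 and 16.02 in EAP with ENU, 11.5, 10.97 and 7.44 in EAP, 12.01, 7.29 and 8.82 in transplanted WT and 4.26, 9.69 and 8.06 in WT. EAP with ENU lay above EAP and above transplanted WT in every library, by 0.49 ± 0.32 and 0.57 ± 0.32, and neither passed (limma adjusted p = 0.91 and 1.00). Groups failed to overlap, with EAP with ENU higher, for 5 of the 26 genes against EAP (Epor, Ermap, Car1, Aqp1 and Tspan33), where 6.68% of all genes did so. Against transplanted WT the same was true of 4 genes (Epor, Ermap, Aqp1 and Hbb-bt), where 9.90% of all genes did so.

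Of the blood group genes, Icam4 had 35.3, 32.8 and 42.1 in EAP with ENU, 55.3, 11.01 and 22.2 in EAP, 39.4, 25.7 and 46.2 in transplanted WT and 13.6, 22.3 and 16.1 in WT. Transplanted WT exceeded WT without overlap (1.04 ± 0.47, limma adjusted p = 0.67). Rhd had 6.23, 4.63 and 7.85 in EAP with ENU, 16.01, 2.58 and 3.11 in EAP, 3.87, 7.06 and 18.4 in transplanted WT and 4.72, 0.129 and 1.61 in WT, where EAP 1 and transplanted WT 3 were the highest libraries. Ermap had 5.55, 5.31 and 7.23 in EAP with ENU, 2.05, 3.93 and 3.05 in EAP, 2.56, 4.85 and 4.202 in transplanted WT and 3.997, 2.61 and 4.81 in WT.

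Car1, the red cell carbonic anhydrase, had 173, 232 and 354 in EAP with ENU, 90.7, 60.9 and 71.4 in EAP, 69.2, 178 and 151 in transplanted WT and 93.8, 31.4 and 103 in WT. EAP with ENU overlapped transplanted WT but not EAP, from which its difference was 1.71 ± 0.48 and did not pass (limma adjusted p = 0.91). Aqp1, chosen after its values were seen, had 29.8, 32.7 and 46.0 in EAP with ENU, 16.04, 17.6 and 12.4 in EAP, 19.8, 27.0 and 28.1 in transplanted WT and 18.6, 12.7 and 21.3 in WT. EAP with ENU exceeded EAP without overlap by 1.17 ± 0.28 (limma adjusted p = 0.83), and EAP lay below transplanted WT without overlap (-0.67 ± 0.28, limma adjusted p = 1.00). Car2 had 32.1, 39.7 and 37.4 in EAP with ENU, 53.8, 30.9 and 26.1 in EAP, 39.2, 30.4 and 38.2 in transplanted WT and 31.5, 43.5 and 33.1 in WT, with no clear order. Bpgm had 28.6, 24.9 and 23.8 in EAP with ENU, 86.3, 22.5 and 32.9 in EAP, 28.7, 28.6 and 61.8 in transplanted WT and 25.0, 47.2 and 23.8 in WT.

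Of the maturation genes, Xpo7 had 14.9, 24.2 and 19.0 in EAP with ENU, 8.02, 34.3 and 20.9 in EAP, 17.1, 9.47 and 19.5 in transplanted WT and 18.8, 3.11 and 17.1 in WT. Tspan33 had 11.7, 13.0 and 11.8 in EAP with ENU, 10.8, 7.44 and 9.12 in EAP, 12.3, 8.89 and 19.5 in transplanted WT and 3.02, 19.4 and 10.5 in WT. Cldn13 had 1.99, 3.72 and 4.44 in EAP with ENU, 6.09, 0 and 2.42 in EAP, 2.70, 3.78 and 4.47 in transplanted WT and 0.219, 0 and 2.12 in WT. The remaining LSK members were low in every library, with Tal1 at 6.36 to 16.8, Zfpm1 at 2.35 to 14.0, and Kel, Sphk1, Slc38a5 and Rhag at 11.7 or less.

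Globin transcripts were present at low levels in LSK cells. Hbb-bt had 36.2, 37.3 and 33.0 in EAP with ENU, 78.1, 10.3 and 54.7 in EAP, 11.9, 32.7 and 16.1 in transplanted WT and 37.9, 67.7 and 44.0 in WT. Hba-a1 had 19.0, 23.8 and 11.9 in EAP with ENU, 14.8, 6.66 and 31.1 in EAP, 15.9, 36.5 and 31.0 in transplanted WT and 8.30, 4.77 and 6.41 in WT. Hbb-bs had 9.26, 10.98 and 11.9 in EAP with ENU, 5.33, 4.50 and 15.96 in EAP, 11.7, 20.8 and 16.2 in transplanted WT and 7.90, 6.46 and 2.48 in WT. Transplanted WT lay above WT without overlap for Hba-a1 (1.89 ± 0.50, limma adjusted p = 0.44) and Hbb-bs (1.46 ± 0.47, limma adjusted p = 0.53), and below WT without overlap for Hbb-bt (-1.34 ± 0.61, limma adjusted p = 0.68). Hba-a2 had 5.98, 4.05 and 5.88 in EAP with ENU, 4.53, 3.23 and 12.5 in EAP, 3.50, 9.90 and 10.2 in transplanted WT and 4.97, 12.2 and 5.28 in WT. Annotated transcripts of Hba-a1 and Hba-a2 share an unbroken run of 415 identical bases, and those of Hbb-bs and Hbb-bt a run of 430, so reads may have been split between partners and the values of single globin genes are uncertain. The handling of reads that fit both partners was not given in the sources used here.

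**Figure D5:**
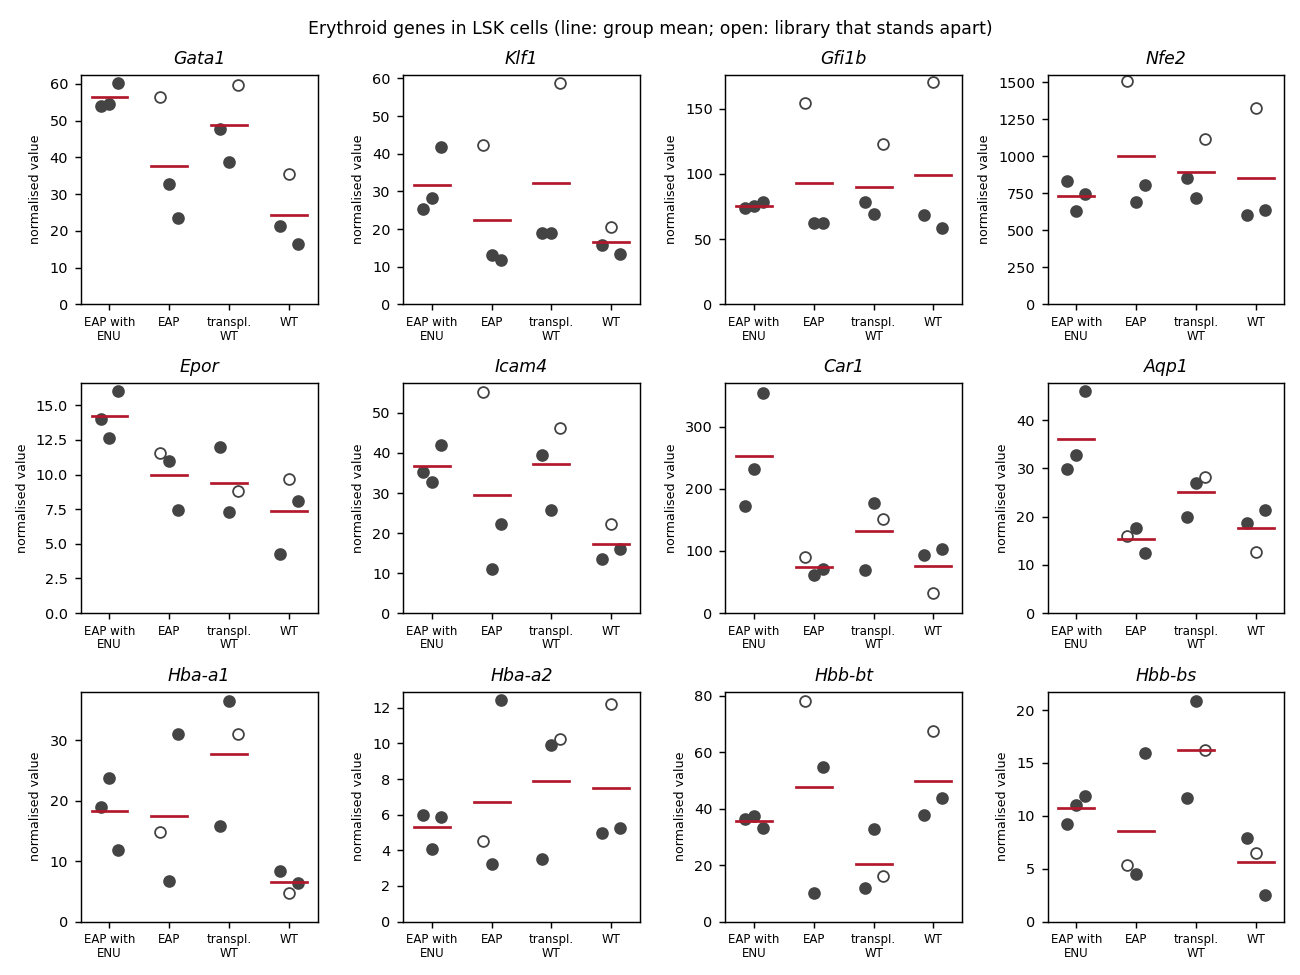
Normalised value (linear axis from 0) of 12 erythroid genes in each of the 12 LSK libraries, by group, with the group mean as a line and the 3 libraries that stand apart as open points. Gata1 lies at 54.0 to 60.3 in EAP with ENU and 16.4 to 35.3 in WT, and the open points are the highest of their groups for Gata1, Klf1, Gfi1b and Nfe2.

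Over transplanted WT against WT, groups did not overlap for 5 of the 26 genes as higher (Gata1, Icam4, Cldn13, Hba-a1 and Hbb-bs), where 7.71% of all genes did so, and for 1 gene as lower (Hbb-bt), where 8.42% did so. In EAP against transplanted WT, 1 gene, Aqp1, did so as lower, where 3.18% of all genes did. Beside these, basophil and mast cell markers summed to 454 to 518 in EAP with ENU, 281 to 988 in EAP, 261 to 1085 in transplanted WT and 141 to 219 in WT, and 0 of 10 passed in each comparison. Megakaryocyte markers summed to 747 to 895, 601 to 822, 619 to 680 and 550 to 608 in the same order of groups. In transplanted WT against WT 1 of these 14, Selp, passed (3.02 ± 0.29, limma adjusted p = 0.0039). Monocyte and macrophage markers summed to 283 to 341 in EAP with ENU, 85.8 to 299 in EAP, 112 to 252 in transplanted WT and 69.2 to 120 in WT. 1 of these 10, Cd14, a surface protein of monocytes, passed against transplanted WT in EAP with ENU (3.65 ± 0.41, limma adjusted p = 0.020) and in EAP (3.18 ± 0.41, limma adjusted p = 0.026). Stem cell markers summed to 1905 to 2311 in EAP with ENU, 1940 to 2461 in EAP, 2364 to 2496 in transplanted WT and 2477 to 3551 in WT. 1 of these 13, Ndn, passed as lower in transplanted WT than in WT (-2.82 ± 0.36, limma adjusted p = 0.027). Late neutrophil markers summed to at most 97.3 in any LSK library. The part of these cell types in the erythroid values was not tested. Of 30 further erythroid genes and 17 of haem synthesis and iron uptake, none passed in any LSK comparison. In the same order of comparisons as above, the further erythroid genes had medians of 0.15, 0.05, -0.07 and 0.07.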

How the data were processed

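RNA-seq tables of bone marrow (12 libraries) and LSK cells (12) were used, and 6 stromal libraries were not. Per the labels' protocols, RNA was isolated with TRIzol and libraries were made with Illumina TruSeq Stranded mRNA. Per the submitters' processing notes, the authors used bcl2fastq, FastQC, TopHat, SAMtools and edgeR with mm10, with no versions. Counting, annotation and scaling were not given in the sources used here. Deposited values are a normalised signal per gene, named CPM by the authors, whose sums differ between libraries. In marrow at least 99.99% of values were whole multiples, within 0.05, of 1 step per library, and reads were recovered from these. No step was found in LSK cells. In marrow 155 alias rows were merged.

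Values were tested as log2(value + 1) with limma 3.58.1 in R 4.3.3 (eBayes with trend) over all genes that reached 1 in at least 6 marrow or 3 LSK libraries, with Benjamini-Hochberg adjustment at 0.05, after trial on simulated data. All 12 LSK libraries entered 1 fit. edgeR 4.0.16 (quasi-likelihood) was run on recovered marrow reads. The members and lists were chosen with earlier results of these data known. All members are named, with values for those past the threshold and up to 3 per role by smallest p (marrow) or highest mean (LSK), and up to 4 genes per list. Positions and exon lengths came from GENCODE vM21. Tables were handled with pandas 2.3.3 under Python 3.11.15 and figures drawn with matplotlib 3.10.9. Some list genes are not reported here by name.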

Additional observations from a re-analysis of the deposited data

Results flagged for a closer look

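Of 52 sets of 6 libraries (26 genes in AML and in MDS, on the log2(value + 1) scale), 2 had a library far from the others, where chance flags about 1 set in 20. The count is no more than that rate gives. However, the 26 genes were measured in the same libraries, so the sets are not independent and the rate is only a rough guide. Both flags were MDS 1, with Sptb, beta spectrin, at 2021 and Rhag, the Rh-associated glycoprotein, at 857. The next highest MDS values were 762 for Sptb and 389 for Rhag. MDS 1 was the highest MDS library for 25 of the 26 genes, with a median of 246% of the MDS median, and its summed late neutrophil markers, at 61624, were the lowest in MDS. Whether these values go with a different cell makeup was not tested.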

How the results depend on the processing

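For AML against MDS, all 26 erythroid genes kept a lower level in AML under all 19 alternatives, and their median log2 difference, -3.12 as reported, ran from -3.62 to -2.41 when 1 library at a time was left out. It was -2.33 with edgeR on recovered reads, -2.25 without MDS 1 and AML 3, and -1.51 with the AML mice given ENU as donor and recipient. The calls were less steady. Against 9 erythroid genes and 361 genes in all, a pseudocount of 0.1 gave 2 and 145, edgeR 1 and 448, the AML with matched ENU 0 and 0, and leaving out MDS 1 and AML 3 together (chosen after seeing the data) 0 and 0. Leaving out 1 library gave 0 to 24 erythroid genes and 0 to 2472 genes, with 24 and 2472 without AML 1, 19 without AML 4, 10 without AML 3, 5 without AML 2, and 0 erythroid genes without AML 5, AML 6 or any MDS library. Of the fits that left out 1 library, only that without AML 1 has its count over all genes given here. The other erythroid counts therefore cannot be set against the calls over all genes. The cause of each lost call was not tested.

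In LSK cells the 26 genes had no call when 1 library at a time was left out. All genes called numbered 1 to 5 for transplanted WT against WT, 0 to 1 for EAP against transplanted WT and 0 to 1 for EAP with ENU against transplanted WT. With only the 2 groups compared the counts were 0, 0 and 6 in that order, and with the replicate block 1, 0 and 1. A pseudocount of 0.1 gave 1 gene for EAP with ENU against transplanted WT. Alternatives chosen after seeing the data left out the 3 libraries that stand apart or gave them a term. For transplanted WT against WT they gave 490 and 275 genes, with 1 erythroid gene each, Gata1, and the erythroid median moved to 0.22 when the libraries were left out. For EAP against transplanted WT they gave 1 and 6 genes, for EAP with ENU against transplanted WT 6 and 9, and for EAP with ENU against EAP leaving them out gave 1.

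Most same-numbered libraries did not deviate together. Over all genes, their deviations correlated with r from -0.16 to 0.23 in marrow and from -0.64 to 0.33 in LSK cells. AML 3 and AML 6 went best with the MDS library of their own number. With so few libraries, these correlations cannot settle whether the numbers pair the samples, and the main fits had no pairing. With the replicate block, AML against MDS had 141 genes and 6 erythroid genes called, 4 of them among the 9. In LSK cells, differences near 0 could turn. Gfi1b in EAP with ENU against EAP was -0.16 over all 12 libraries and 0.27 without the 3 that stand apart, and the erythroid median for EAP with ENU against transplanted WT, 0.02, ran from -0.09 to 0.20 when 1 library was left out. The LSK table keeps no depth, so counting error could not be separated from the spread there.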
